A study of Mus musculus with 8 samples.

Results

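Oligodendrocytes, the cells that wrap axons of the brain in myelin, arise from progenitors in a known order of gene expression, and 9 genes that mark this order were followed here through mouse neurospheres with and without the chromatin protein HP1gamma. The probes of these genes were found through the RefSeq accessions of the array probes: Olig1, Olig2, Nkx2-2 and Sox10 as early transcription factors, Pdgfra and Cspg4 as surface proteins of precursors, Gpr17 as a receptor of committed precursors, and Cnp and Mbp as myelin genes. All 9 had a probe, 12 probes in all of the 55681 non-control probes on the array and 9 of the 20660 genes that could be named. Mbp had 3 probes, Nkx2-2 had 2, and each other gene had 1.

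Neurospheres are balls of neural stem and progenitor cells that grow in suspension. The labels give ganglionic eminences of E14.5 mouse embryos as the source, with 1 embryonic brain behind each sample, and RNA was taken from quaternary neurospheres after 7 days in medium with 20 ng/ml EGF and 20 ng/ml bFGF. The groups were wild type floating (called WT floating, 3 arrays), HP1gamma KO floating (KO floating, 3 arrays) and HP1gamma KO adherent (KO adherent, 2 arrays). HP1gamma is the product of the gene Cbx3. The labels do not name the allele or the strain, and they describe ultra-low attachment plates for all samples, so how the adherent cultures were made is not stated in the sources used here. Nothing in the labels says whether a KO floating and a KO adherent sample share an embryo.

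In the developing brain the basic helix-loop-helix factors OLIG1 and OLIG2 and the homeodomain factor NKX2-2 specify oligodendrocyte precursors, and SOX10 then switches on myelin genes. Precursors divide in response to PDGF through the receptor PDGFRA and carry the proteoglycan NG2, the product of Cspg4. GPR17 appears for a short time as precursors commit, and CNP and MBP are made as the cells differentiate and myelinate. OLIG2 and NG2 are not exclusive to this lineage, since progenitors of the ganglionic eminence also make OLIG2 and pericytes also make NG2. The Mbp locus also encodes the golli proteins, which are made in cells other than oligodendrocytes. EGF and bFGF, both in the medium here, are used to keep neural cells dividing.

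Each value below is the log2 signal of a probe minus the 75th percentile of log2 signal on the same array, so 0 marks a probe as bright as the 75th percentile and 1 unit is a 2-fold difference. Probes bind with different strengths, so levels are compared between arrays and never between probes. The 75th percentile of signal ranged from 616 to 865 between arrays, the share of spots well above background from 44.5% to 55.4%, and all 8 arrays lay on 1 slide. The Cbx3 signal opposed the label of 2 arrays: on its brighter probe it was -2.17 on the array labelled WT floating 2 and 5.91 on the array labelled KO adherent 2, against 5.83 and 5.95 on WT floating 1 and 3 and -2.76 to -1.75 on the other KO-labelled arrays. Every comparison is therefore given with and without these 2 arrays, and names such as WT floating 2 stand for the label. Nothing says that the samples shown as replicates were cultured at separate times, so p-values measure only the spread between these samples. The cells were measured in bulk, so fewer cells of a type and less RNA per cell cannot be told apart.

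Promoter sequences show what lies at the start of these genes. Windows of the RefSeq promoter table (GRCm38.p6) were matched to 5 of the 9 genes, from 250 bases before to 50 bases after the start of the gene. The windows of Olig2 and of both precursor genes are printed beside that of the myelin gene Cnp, in lower case, with each E-box in capitals. An E-box, CANNTG, is the 6-base motif that basic helix-loop-helix proteins bind, and it reads the same way on both strands.
Olig2 promoter window, chr16:91225300-91225599, plus strand: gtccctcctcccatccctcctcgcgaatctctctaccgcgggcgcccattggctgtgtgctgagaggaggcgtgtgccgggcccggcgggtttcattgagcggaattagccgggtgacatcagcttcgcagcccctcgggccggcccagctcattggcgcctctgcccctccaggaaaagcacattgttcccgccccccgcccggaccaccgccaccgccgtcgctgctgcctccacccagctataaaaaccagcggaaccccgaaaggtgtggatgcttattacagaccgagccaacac
Pdgfra promoter window, chr5:75152001-75152300, plus strand: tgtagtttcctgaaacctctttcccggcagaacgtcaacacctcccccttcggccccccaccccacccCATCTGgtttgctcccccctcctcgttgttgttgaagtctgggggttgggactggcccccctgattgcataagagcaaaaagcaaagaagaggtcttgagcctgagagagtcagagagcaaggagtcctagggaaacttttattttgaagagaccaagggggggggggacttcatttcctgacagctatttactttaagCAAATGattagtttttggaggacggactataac
Cspg4 promoter window, chr9:56864854-56865153, plus strand: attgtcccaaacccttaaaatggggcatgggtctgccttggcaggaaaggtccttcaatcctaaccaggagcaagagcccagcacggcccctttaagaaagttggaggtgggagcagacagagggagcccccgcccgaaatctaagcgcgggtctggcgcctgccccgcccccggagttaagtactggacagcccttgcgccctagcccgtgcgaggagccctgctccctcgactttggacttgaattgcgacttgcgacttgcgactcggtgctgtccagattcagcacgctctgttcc
Cnp promoter window, chr11:100574689-100574988, plus strand: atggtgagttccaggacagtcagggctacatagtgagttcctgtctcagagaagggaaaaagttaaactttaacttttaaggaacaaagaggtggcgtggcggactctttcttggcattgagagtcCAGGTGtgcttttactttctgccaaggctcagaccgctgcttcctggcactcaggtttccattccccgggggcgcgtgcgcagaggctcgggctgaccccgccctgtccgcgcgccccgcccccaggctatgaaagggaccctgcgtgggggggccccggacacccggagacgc
The Pdgfra window held 2 E-boxes, CATCTG and CAAATG, the Cnp window held 1, CAGGTG, and the windows of Olig2 and Cspg4 held 0. Of 32851 RefSeq windows of the same length, 72.3% held at least 1. The SOX-type motif ACAAAG, searched on both strands, was found 1 time in the Cnp window and 0 times in the other 3, and 18.7% of all windows held it. The 4 windows differed in CG dinucleotides: 25 in Olig2, 17 each in Cspg4 and Cnp, and 5 in Pdgfra, against a median of 7 over all windows. The Nkx2-2 window, not printed, held 3 E-boxes and 17 CG dinucleotides. Olig1, Sox10, Gpr17 and Mbp are named only. A match is a description of letters and says nothing of a bound factor.

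Among the early factors, Olig1 and Olig2 had a wider range over the arrays than Nkx2-2 and Sox10 on the brightest probe of each, and WT floating 1 and 3 were the lowest arrays for both. Olig1 was at 4.97, 7.18 and 4.80 on WT floating 1, 2 and 3, at 6.61, 7.26 and 6.80 on KO floating 1, 2 and 3, and at 6.60 and 5.53 on KO adherent 1 and 2. WT floating 1 and 3 lay below all other arrays, KO adherent 2 came next, and WT floating 2 lay among the KO floating arrays, so the labelled groups overlapped. Olig2, which in the RefSeq table is separated from Olig1 by 0 protein-coding genes and 1 other gene, was at 3.97, 5.20 and 3.97 on WT floating 1, 2 and 3. It was at 4.90, 5.06 and 4.12 on KO floating 1, 2 and 3 and at 4.91 and 4.44 on KO adherent 1 and 2. KO floating 3 had a low Olig2 value beside a high Olig1 value.

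Nkx2-2 and Sox10 did not separate the groups. On its brighter probe Nkx2-2 ranged from -2.33 on KO floating 2 to -1.55 on KO floating 3, and the other 6 arrays lay between these. Its second probe was above background on 6 of 8 arrays and was also highest on KO floating 3, at -2.01, while WT floating 3 and KO floating 2 gave no signal well above background. Sox10 ranged from -2.07 on WT floating 3 to -1.82 on KO floating 3, the smallest range of the 9 genes on their brightest probes. Both genes were well above background on all 8 arrays on the brighter probe.

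The precursor genes followed Olig1 in part. Pdgfra was at -2.75, -0.98 and -3.03 on WT floating 1, 2 and 3, at -1.72, -0.52 and -1.90 on KO floating 1, 2 and 3, and at -1.44 and -3.21 on KO adherent 1 and 2. Its signal on WT floating 3 was not well above background, and the 3 lowest arrays were KO adherent 2 and WT floating 1 and 3. Cspg4 was at 2.09, 2.98 and 2.38 on WT floating 1, 2 and 3, at 3.01, 2.71 and 2.79 on KO floating 1, 2 and 3, and at 2.76 and 3.11 on KO adherent 1 and 2. WT floating 1 and 3 were again the lowest, but KO adherent 2 was the highest of all arrays, unlike for Pdgfra and Olig1.

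Gpr17 was near the limit of detection. It was at -6.37, -3.99 and -5.65 on WT floating 1, 2 and 3, at -1.95, -3.38 and -4.10 on KO floating 1, 2 and 3, and at -3.42 and -6.42 on KO adherent 1 and 2. It was well above background on 4 of 8 arrays: WT floating 2, KO floating 1 and 2 and KO adherent 1. No group had it above background on all of its arrays, so it did not enter the tests, and values below background have no order.

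The myelin genes ran the other way on the brightest probe of each. Cnp, an enzyme of uncompacted myelin, was at 3.60, 3.30 and 3.51 on WT floating 1, 2 and 3, at 3.34, 3.41 and 3.33 on KO floating 1, 2 and 3, and at 3.29 and 3.71 on KO adherent 1 and 2. Its whole range was 3.29 to 3.71, with KO adherent 2 and WT floating 1 and 3 as the 3 highest arrays. The brightest Mbp probe was at -1.53, -2.93 and -0.59 on WT floating 1, 2 and 3, at -2.38, -2.80 and -2.21 on KO floating 1, 2 and 3, and at -3.12 and -0.42 on KO adherent 1 and 2. WT floating 1 and 3 and KO adherent 2 lay above the other 5 arrays, the reverse of Olig1 and Pdgfra.

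**Figure D1:**
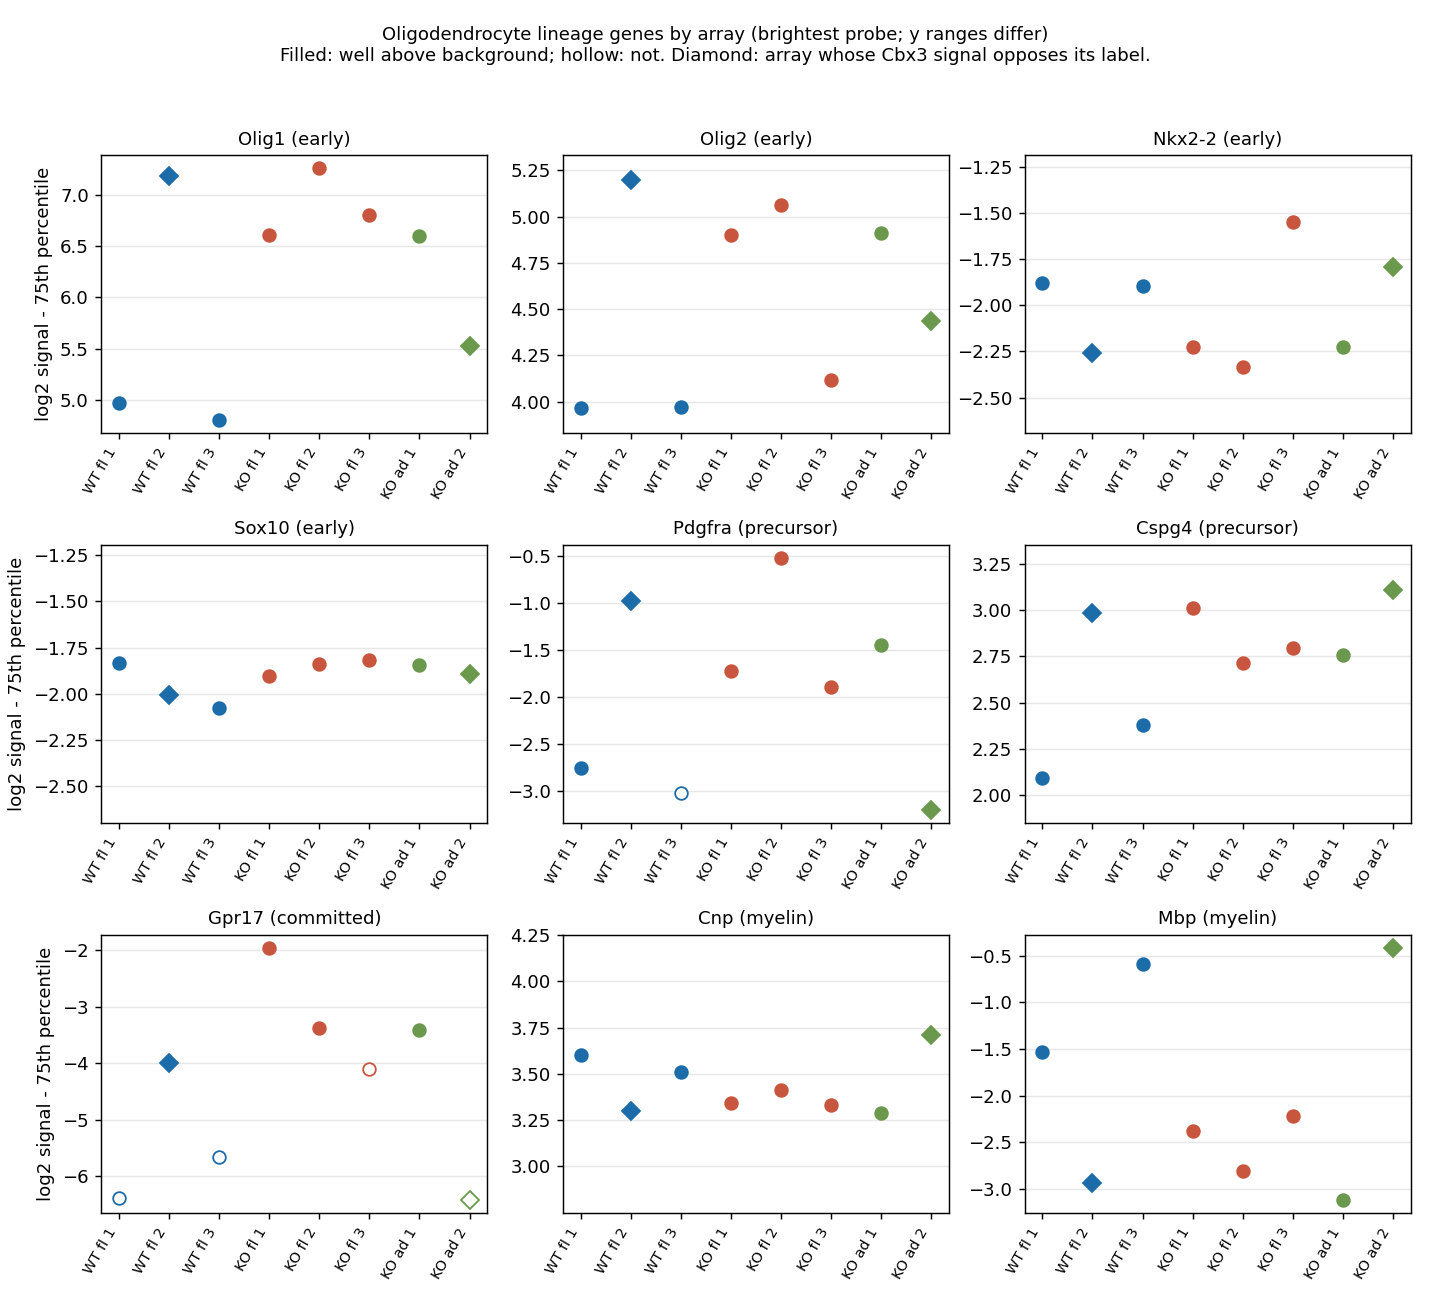
Log2 signal minus the array's 75th percentile (y axis) of the brightest probe of each of the 9 genes on the 8 arrays (x axis; WT and KO, fl for floating, ad for adherent), 1 point an array, hollow where not well above background, diamonds for the 2 arrays whose Cbx3 signal opposes their label. Olig1 and Pdgfra are low on WT floating 1 and 3 and KO adherent 2, Mbp is high on these 3 arrays, and Sox10 spans -2.07 to -1.82.

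The 3 probes of Mbp did not give 1 pattern. The brightest, listed under the accession NM_001025245, was well above background on all 8 arrays, with the values above. The second, listed under NM_010777, was at -0.28, -4.25 and -3.52 on WT floating 1, 2 and 3, at -3.66, -4.51 and -3.65 on KO floating 1, 2 and 3, and at -4.20 and -3.51 on KO adherent 1 and 2. WT floating 1 thus stood apart on it, while the other 7 arrays lay between -4.51 and -3.51, and WT floating 3 and KO floating 2 were not well above background. The third probe, also listed under NM_010777, ranged from -6.92 to -4.65 and was above background on 0 of 8 arrays, so it gives no order. Statements on Mbp below rest on the brightest probe. Whether that probe reports myelin or golli transcripts of the locus was not tested.

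**Figure D2:**
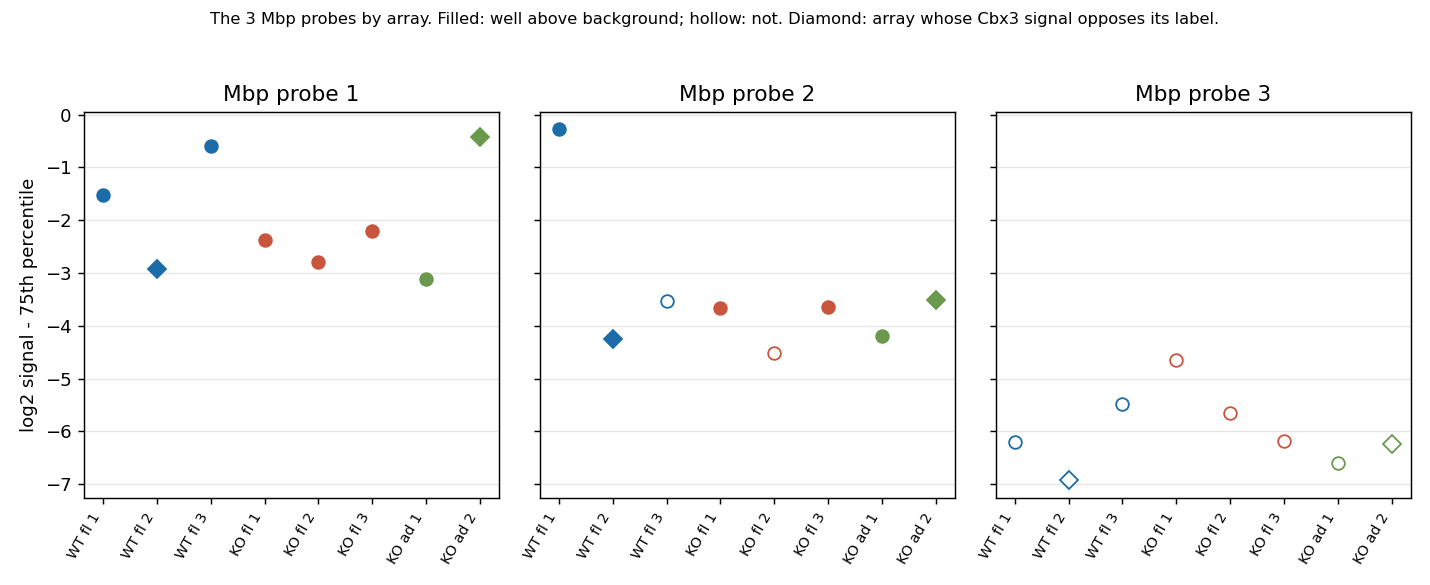
Log2 signal minus the array's 75th percentile (y axis, shared) of the 3 Mbp probes on the 8 arrays (x axis), 1 point an array, hollow where not well above background, diamonds for the 2 arrays whose Cbx3 signal opposes their label. Probe 1 separates WT floating 1 and 3 and KO adherent 2 from the rest, probe 2 is high on WT floating 1 at -0.28, and probe 3 is above background on no array.

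The first comparison asks how loss of HP1gamma changes these genes in floating neurospheres, with all arrays as labelled. Of the 9 genes 8 could be tested and 0 passed the threshold, a Benjamini-Hochberg adjusted p of 0.05 in limma over 22640 features; 1 feature, or 0.00442% of them, passed. The early factor Olig1 averaged 6.89 ± 0.34 (SD, n = 3) in KO floating and 5.65 ± 1.33 (SD, n = 3) in WT floating, a difference of 1.24 (SE 0.65, 95% interval -0.28 to 2.75, limma adjusted p = 0.813). Pdgfra differed by 0.87 (SE 0.70) and Mbp by -0.78 (SE 0.79), with limma adjusted p of 0.813 and 0.815. In each of these the SD of the WT arrays, which hold WT floating 2, was larger than that of the KO arrays. The other 5 tested genes differed by -0.11 to 0.35. Of the 8, 0 had an unadjusted limma p under 0.05, beside 1.73% of all features. Arrays of WT and KO floating overlapped for all 8 tested genes, while 8.41% of all features did not overlap. Without the 2 arrays that oppose their label, and with the cultures kept apart, the Olig1 difference was 2.0 (SE 0.24, limma adjusted p = 0.0657), those of Pdgfra and Mbp were 1.51 and -1.40, and 0 of the 9 genes then tested passed, with 46 of 25959 features called in all.

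Adherent and floating culture were compared within the HP1gamma KO label, and 0 of 8 tested genes passed, as did 0% of the 22640 features (limma, smallest adjusted p over all features 0.215; 1.12% at an unadjusted p under 0.05). Olig1 had a mean of 6.06 ± 0.76 (SD, n = 2) in KO adherent against 6.89 in KO floating, and the difference was -0.83 (SE 0.72, 95% interval -2.52 to 0.87). The Pdgfra difference was -0.95 (SE 0.78) and that of Mbp 0.70 (SE 0.88), and the other 5 lay between -0.02 and 0.14. For 1 of the 8, Olig1, the arrays of the groups did not overlap, beside 12.8% of all features. The 2 adherent arrays lay far apart, for Mbp at -3.12 and -0.42. Without the 2 opposing arrays, which leaves KO adherent 1 alone and assumes it to vary like the other groups, Olig1 differed by -0.29 (SE 0.31), Pdgfra by -0.06 (SE 0.59) and Mbp by -0.65 (SE 0.45), and 0 of 9 tested genes passed (limma).

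With the 2 opposing arrays left out and the 4 remaining KO-labelled arrays joined against WT floating 1 and 3, an early factor and both precursor genes rose and Mbp fell. Of the 8 tested genes 4 passed in limma, beside 17.3% of 21459 features. Of these 3 were higher in KO, beside 8.98% of features, and 1 was lower, beside 8.34%; an unadjusted p under 0.05 was reached by 5 of 8, beside 37.7%. The first 2 comparisons and this one share arrays, so they are not independent of each other. Pdgfra entered the test through the KO arrays, where it was above background on 4 of 4, against 1 of 2 WT arrays.

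Olig1 rose from 4.88 ± 0.12 (SD, n = 2) to 6.82 ± 0.31 (SD, n = 4), a difference of 1.93 (SE 0.22, 95% interval 1.40 to 2.47) or 3.82-fold, in all 4 KO-labelled arrays (limma adjusted p = 0.00969). Its neighbour Olig2 had means of 3.97 ± 0.0033 (SD, n = 2) and 4.75 ± 0.43 (SD, n = 4). The Olig2 difference of 0.78 (SE 0.28) missed the threshold with a limma adjusted p of 0.0969, and passed only without KO floating 3 (0.99, limma adjusted p = 0.0132). Nkx2-2 differed by -0.20 (SE 0.24, 95% interval -0.78 to 0.39) and Sox10 by 0.10 (SE 0.13, 95% interval -0.21 to 0.42), both overlapping between groups. Of the 4 early factors 1 passed.

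The receptor gene Pdgfra rose by 1.5 (SE 0.39) with a limma adjusted p of 0.0472, its means being -2.89 ± 0.20 (SD, n = 2) in WT and -1.39 ± 0.61 (SD, n = 4) in KO. The call was lost with quantile normalization (adjusted p = 0.0663) and with normexp background correction of the median spot signal, which changes both the input signal and the background step, where the difference was 0.92 (adjusted p = 0.0733). Cspg4 rose by 0.58 (SE 0.16), or 1.5-fold, with a limma adjusted p of 0.0495 and means of 2.23 ± 0.20 (SD, n = 2) in WT and 2.82 ± 0.13 (SD, n = 4) in KO. With the replicate number as a block it differed by 0.63 and did not pass (limma adjusted p = 0.0609), and testing every probe by itself gave an adjusted p of 0.0501. For Gpr17, outside the test, the 4 KO-labelled arrays had -4.10 to -1.95 and the 2 WT arrays -6.37 and -5.65, neither of them above background. KO floating 3 was the only joined KO-labelled array where Gpr17 was not well above background, and without that array the gene entered the test. It entered through the KO arrays alone, so its limma adjusted p of 0.0181 there rests on that choice. With KO floating 3 kept and no filter on dim probes the limma adjusted p was 0.104. No fold is given against values below background.

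Of the myelin genes, Mbp fell by 1.56 (SE 0.35, 95% interval -2.42 to -0.71), with a limma adjusted p of 0.0364 and means of -1.06 ± 0.66 (SD, n = 2) in WT and -2.63 ± 0.41 (SD, n = 4) in KO. Cnp was at 3.56 ± 0.06 (SD, n = 2) and 3.35 ± 0.05 (SD, n = 4), and its difference of -0.21 (SE 0.12) missed the threshold with a limma adjusted p of 0.242. The second Mbp probe differed by -2.11, set by WT floating 1, and the third by 0.07 with all arrays below background; neither entered the test. Early and precursor genes thus had differences of -0.20 to 1.93 and the 2 myelin genes -1.56 and -0.21, and the contrast between these stages was not tested. Of the 8 tested genes 6 did not overlap between groups, beside 53.4% of all features.

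The 4 called genes differed in the same direction within each row of the slide, each of which held 1 of the 2 WT arrays and 2 KO-labelled arrays. In the first row KO minus WT was 1.96 for Olig1, 1.63 for Pdgfra, 0.77 for Cspg4 and -1.06 for Mbp. In the second row these were 1.90, 1.36, 0.40 and -2.07. With the row as a block 1 gene passed, Olig1, and the limma adjusted p was 0.0548 for Pdgfra, 0.0676 for Cspg4 and 0.0512 for Mbp. Counts of called genes fell to 0 without WT floating 3 and to 1, Olig1, without WT floating 1, KO floating 1 or KO adherent 1, while the differences of the 4 kept their direction. Without KO adherent 1 all arrays are floating, and Olig1 differed by 2.0 (SE 0.24).

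**Figure D3:**
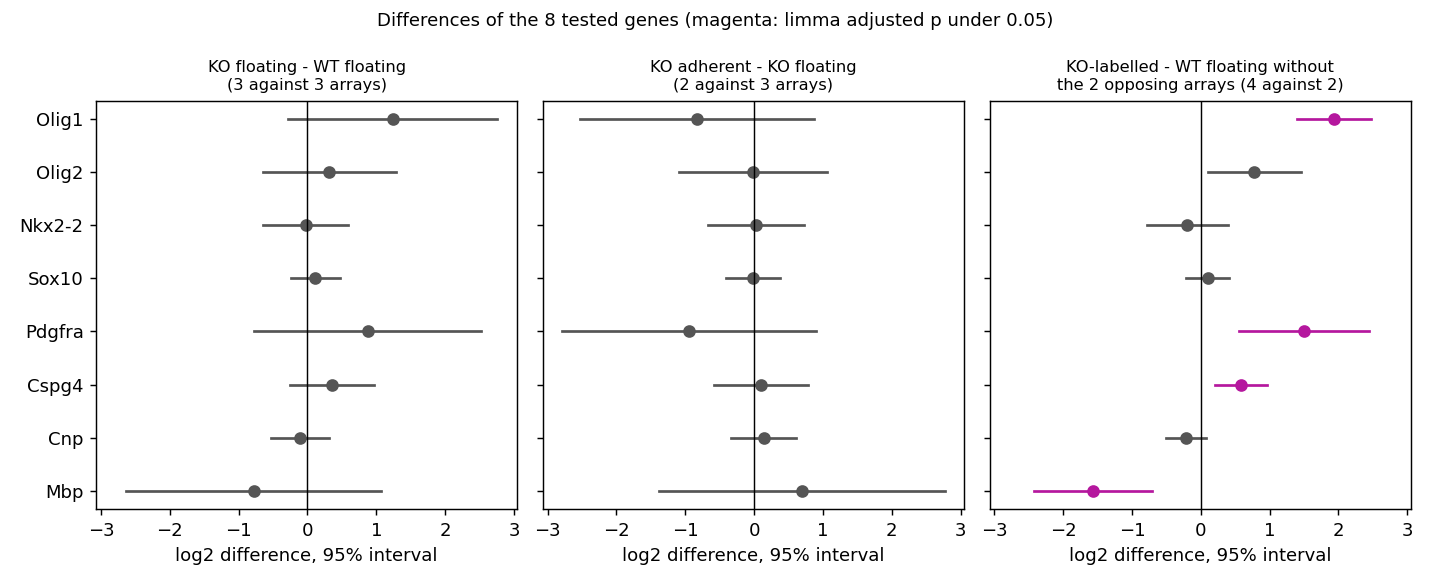
Log2 difference (x axis) with its 95% limma interval of the 8 tested genes (y axis) in the 3 comparisons, magenta where the adjusted p was under 0.05. No gene passes in the first 2 panels, and Olig1, Pdgfra and Cspg4 above 0 and Mbp below 0 pass in the third, with Olig1 at 1.93 and Mbp at -1.56.

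Other genes of the lineage were taken from lists ordered by stage and tested in the same joined fit, where 17.3% of features passed and the median difference of all features was -0.07. Of 10 tested genes of precursor surface and matrix, 4 rose and 0 fell (median 0.42). Bcan, the matrix proteoglycan brevican, rose by 0.92 (SE 0.13), and Ptprz1, a receptor phosphatase, by 0.62 (SE 0.16). Cacng4, a subunit that regulates AMPA receptors and calcium channels, rose by 1.55 (SE 0.27), and Lhfpl3 rose by 3.07 (SE 0.67), from -2.20 and -2.75 on WT floating 1 and 3 to between -0.57 and 2.03 on the KO-labelled arrays. The count of 4 was 0 without WT floating 3 or KO adherent 1 and 1 without WT floating 1 or KO floating 1.

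Of 10 tested transcription factors of the lineage 4 rose and 0 fell (median 0.84). Sox8, a relative of Sox10, rose by 1.59 (SE 0.19), from 0.71 ± 0.27 (SD, n = 2) to 2.30 ± 0.20 (SD, n = 4). Myt1 and Zfp536, both zinc finger proteins, rose at least 2.21-fold and at least 3.37-fold; these are bounds, because neither was above background on the 2 WT arrays, and both entered the test through the KO arrays alone. The count of 4 was 1 without WT floating 1, 2 without WT floating 3 or KO adherent 1, and 7 with the replicate number as a block. Myrf, Nkx6-1, Nkx6-2 and St18 did not pass the probe filter.

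Genes of committed and myelinating cells split in direction. Of 7 tested genes of committed precursors and early myelination 1 rose and 1 fell (median -0.10, which turned to 0.04 with quantile normalization, where 2 rose and 0 fell): Bcas1, a marker of newly formed myelinating cells, fell by 1.0 (SE 0.25). Of 12 tested late myelin genes 2 rose and 3 fell (median -0.36). Opalin, a membrane protein of oligodendrocytes, was at -1.02 and -1.28 on WT floating 1 and 3 and above background on 0 of 4 KO-labelled arrays, and fell at least 8.82-fold; it entered the test through the WT arrays alone. Trf, transferrin, fell by 3.49 (SE 0.49), and Mal, a myelin proteolipid, fell by 2.14 (SE 0.31). Gjc3, a connexin, rose at least 13.9-fold from below background on both WT arrays, and it entered the test through the KO arrays alone. The myelin genes Mog, Mag and Cldn11, named after their values were seen, differed by -0.27, -0.89 and -2.01, none past the threshold. Without WT floating 1, WT floating 3 or KO adherent 1 the late list had 1 gene higher and 1 lower, and without KO floating 1 it had 1 higher and 3 lower. The committed list had 0 called genes without any 1 of these 4 arrays, and 2 higher and 2 lower with the replicate block. Mobp, Fa2h and Gal3st1 did not pass the probe filter.

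Signals that act on the lineage were taken as ligands and receptors and as inhibitors. Of 12 tested ligands and receptors 1 rose and 1 fell (median 0.12): Fgfr3, an FGF receptor, rose by 1.09 (SE 0.29), and Pdgfa, which encodes a ligand of PDGFRA, fell by 0.72 (SE 0.13). Pdgfa thus moved opposite to the gene of its receptor, though with quantile normalization neither Pdgfra nor any member of this list passed. Pdgfc, also in the list, differed by 0.25 (SE 0.16) and did not pass. Of 8 tested inhibitors of oligodendrocyte differentiation 2 rose and 0 fell (median 0.31): Hes5, a Notch effector, rose by 3.22 (SE 0.32), and Nr2e1, a nuclear receptor of stem cells, by 1.04 (SE 0.20). Without WT floating 1, WT floating 3, KO floating 1 or KO adherent 1 the ligand and receptor list had 0 calls and the inhibitor list 1; with the replicate block they had 3 and 4. With all 8 arrays as labelled, 0 members of these 6 lists passed in either comparison. Lists of few genes are described by their counts, and nothing particular to a list is read from them.

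**Figure D4:**
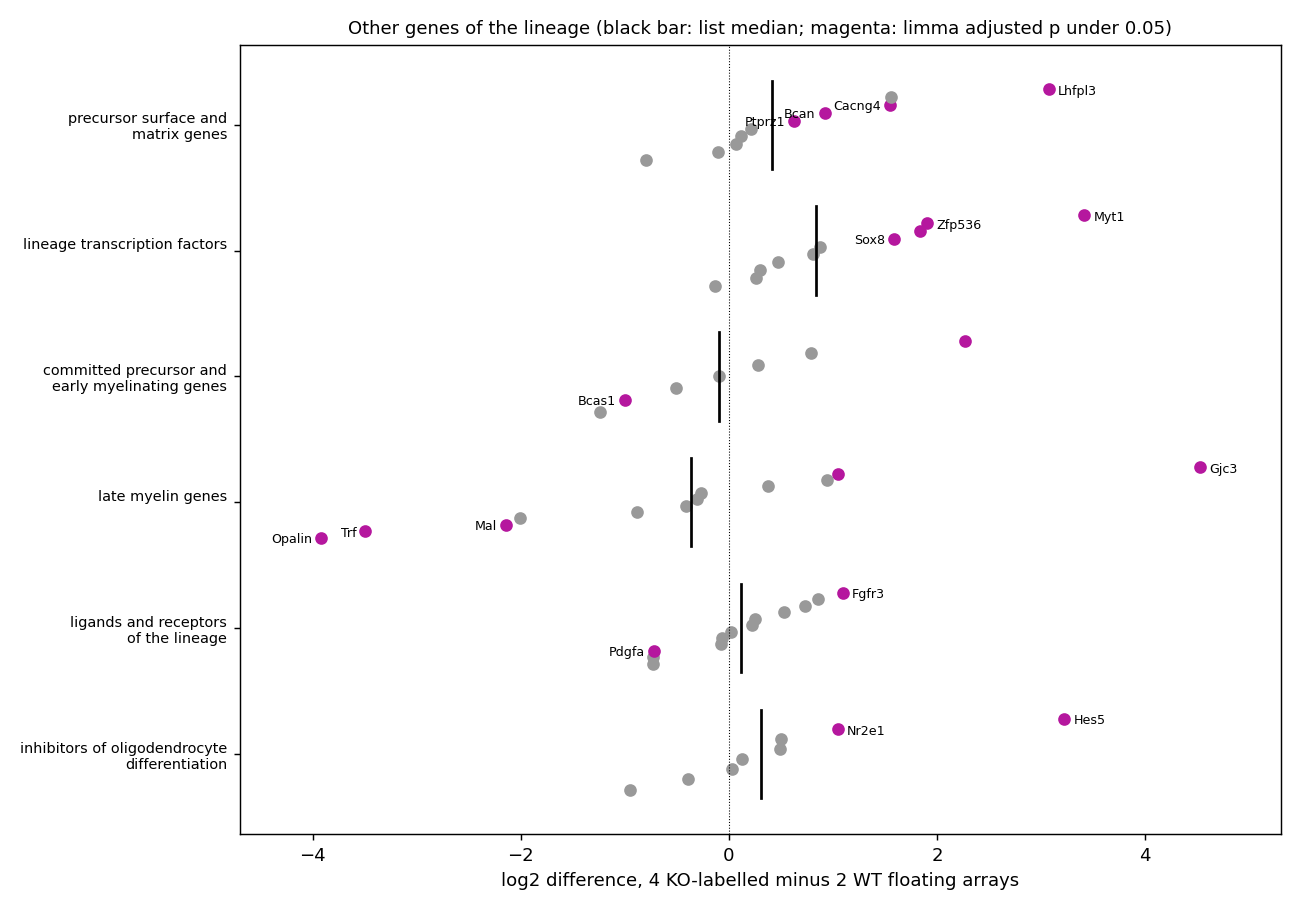
Log2 difference between the 4 KO-labelled and 2 WT floating arrays (x axis) for each tested gene of 6 lists of the lineage (y axis), magenta where the limma adjusted p was under 0.05 and named where described in the text, with a black bar at the list's median; points are fitted values, also for genes whose fold is given only as a bound. Called genes of the first 2 lists lie above 0, while the late myelin list has called genes on both sides, from Opalin to Gjc3.

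Summed markers of astrocytes, neural stem cells and neurons were higher on the 4 KO-labelled arrays than on WT floating 1 and 3. Their part in the differences was not tested. Bright probes weigh most in such sums, and single markers split in the joined fit. There 5 of 8 tested astrocyte and 3 of 8 tested stem cell markers rose past the threshold, beside 8.98% of all features. The astrocyte marker Gfap (-2.35) and the stem cell markers Vim (-0.68) and Nes (-0.80) fell, beside 8.34%. Without WT floating 3, 0 astrocyte markers and 1 stem cell marker rose past the threshold. The summed linear level of 9 astrocyte markers, relative to the 75th percentile, was 109 to 168 on WT floating 1 and 3 and 257 to 410 on the 4 KO-labelled arrays, with 7 to 9 of the 9 above background on each array. That of 8 neural stem cell markers was 464 to 474 and 592 to 880, with 8 of 8 above background on every array. For 10 neuronal markers it was 29.0 to 29.4 and 35.2 to 41.9, with 6 to 8 of 10 above background and Gad2 and Stmn2 not above background on any array. Markers of pericytes and fibroblasts, cells that also make Pdgfra or Cspg4, summed to 0.423 to 0.455 and 0.185 to 0.442 with 0 to 4 of 9 above background, and the pericyte genes Pdgfrb and Rgs5 were not above background on any array.

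The genes most like 3 of the members over the 8 arrays were sought by Pearson's r on log2 values among 12687 other tested genes. As the arrays fall into high and low groups for many genes, such r values describe these 8 arrays and carry no test. Closest to Olig2 were Sipa1l1 (r = 0.987), Ankra2 (0.976) and Kcnd2 (0.973), a potassium channel gene. Closest to Pdgfra were Pcdhb6, a clustered protocadherin (r = 0.994), the imprinted gene Nnat (0.993) and B3galt1 (0.992), and Nnat was at 2.59, 4.44 and 2.39 on WT floating 1, 2 and 3 and at 4.03 and 2.18 on KO adherent 1 and 2. Closest to the brightest Mbp probe were the centrin gene Cetn2 (r = 0.985), Fance (0.984) and Dgkg (0.981). Each of these 9 orders the arrays nearly as its member does, with Spearman's rho of 0.952 to 1.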

How the data were processed

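RNA of 8 neurosphere samples was hybridised to single-colour (Cy3) Agilent arrays. Per the file headers, the deposited intensity of each spot is linear and came from Agilent Feature Extraction 11.0.1.1; version 9.1.3.1 stands in the submitters' processing notes. Values are log2 of the processed signal minus the 75th percentile of each array over non-control spots. Spots marked as non-uniform or population outliers were left out, repeated spots were averaged, and probes without a value on an array of the fit were left out; all 12 probes of the 9 genes had values on all 8 arrays. Probes were named through unversioned accessions in a RefSeq table of GRCm38.p6 (27235 of 55681 matched); the file headers name mm9 for the array design, so no coordinates are given for probes, and those of the promoter windows are in GRCm38.p6. Probes entered a test if 1 group or more had them well above background on all its arrays, and a gene was read from its brightest such probe. Tests were two-sided, with limma 3.58.1 in R 4.3.3 (lmFit, eBayes) over all features at an adjusted p of 0.05, and were tested on simulated data. Folds given as bounds set the brighter group against a floor: on each array of the dimmer group, the lowest signal well above background, or that probe's signal if larger.

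The 9 genes, the lists of other lineage genes and cell type markers, the tests and the alternatives were chosen with earlier results of these data known. The genes named from lists were up to 4 past the threshold with the lowest p in the joined fit, or else up to 2 of the brightest, and 3 genes by likeness for Olig2, Pdgfra and Mbp. Some genes counted in the lists are not reported here by name. Deviations from the group means correlated between WT and KO floating arrays of 1 number (r over features 0.104, 0.590 and 0.335). The main fits held no replicate block, and the number served as a block only in an alternative fit. Floating arrays of different numbers reached 0.346 (WT floating 1 with KO floating 3) and 0.206 (WT floating 3 with KO floating 1). The other such pairs were negative, from -0.505 (WT floating 3 with KO floating 2) to -0.193 (WT floating 2 with KO floating 1). WT floating 2 reached 0.630 with KO adherent 1. Its value with KO adherent 2, -0.630, is no second result, because the deviations of 2 arrays from their own mean always mirror each other. The labels do not say what a number stands for.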

Additional observations from a re-analysis of the deposited data

Results flagged for a closer look

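In the 4 KO-labelled arrays that were joined, KO floating 3 stood apart from the other 3 on 3 of the 12 probes. Its Olig2 value of 4.12 lay below the others, with a gap of 0.833 of the whole range. Both Nkx2-2 probes were highest on it, at -1.55 and -2.01, with gaps of 0.863 and 0.871 of the range. The critical value for 4 arrays is 0.829, chance passes it in about 1 group in 20, and the groups of 3 or fewer arrays were not examined this way. The cause was not tested.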

How the results depend on the processing

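For KO against WT floating, 0 of the 7 to 9 tested genes passed under every alternative run. That includes the replicate block and the fits with 1 array left out. In KO adherent against KO floating 0 tested genes passed in the alternatives that kept 2 or more arrays in each group, also with the replicate block. In the joined comparison the count of 4 was 3 with the replicate block and ranged from 0 to 5 when single arrays were dropped (0 for WT floating 3 and 1 for WT floating 1, KO floating 1 or KO adherent 1). It was 0 with no filter on dim probes, where Olig1 had a limma adjusted p of 0.0531, and 1 when slide row was the block. Signs turned only in differences that did not pass. With normexp these were Olig2 (0.0089) and Nkx2-2 (-0.022) in adherent against floating culture and Sox10 (-0.0079) in the joined comparison. With the slide row as a block they were Olig2 (0.47), Nkx2-2 (-0.27) and Sox10 (0.021) in adherent against floating culture. Without the 2 opposing arrays they were, in the same comparison, Olig2 (0.22), Nkx2-2 (-0.19), Sox10 (0.014), Cspg4 (-0.081), Cnp (-0.073) and Mbp (-0.65). Leaving out 1 array turned Nkx2-2 in KO against WT floating (-0.27 to 0.12) and Sox10 in the joined comparison (-0.020 to 0.22). In adherent against floating culture it turned Olig2 (-0.31 to 0.22), Nkx2-2 (-0.19 to 0.27), Sox10 (-0.040 to 0.014), Cspg4 (-0.081 to 0.27), Cnp (-0.073 to 0.35) and Mbp (-0.65 to 2.05). The cause of these changes was not tested. Gpr17, the second Mbp probe on 2 arrays and the third on all 8 were limited by signal over background, and 2 WT arrays set the precision of the joined comparison.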

Other observations

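Marker genes of other cell types gave these counts in the joined comparison, where 8.98% of all features rose and 8.34% fell. Of 8 tested astrocyte markers 5 rose and 1 fell (median 1.16). Slc1a2, a glutamate transporter, rose by 1.79 (SE 0.23), S100b by 1.51 (SE 0.23) and Aldoc by 2.79 (SE 0.48). Gfap differed by -2.35 (SE 0.40), above background on 2 of 2 WT and 1 of 4 KO-labelled arrays. It entered the test through the WT arrays alone. Aqp4, also among the 5 that rose, was above background on 0 of 2 WT arrays and entered through the KO arrays alone. On another probe, read in the fit of all 8 arrays, Aqp4 differed by 0.02 (SE 0.28) between KO and WT floating. Of 8 tested neuronal markers 3 rose and 0 fell (median 0.39): Tubb3 rose by 1.26 (SE 0.16), Rbfox3 by 3.20 (SE 0.72), and Dcx at least 2.75-fold. Rbfox3 was above background on 1 of 2 WT arrays and Dcx on 0 of 2, so both entered the test through the KO arrays alone. Of 8 neural stem cell markers 3 rose and 2 fell (median 0.50), with Vim and Nes, both intermediate filament genes, lower by 0.68 (SE 0.16) and 0.80 (SE 0.21). Without WT floating 3 the counts of genes that rose were 0 for astrocytes, 0 for neurons and 1 for stem cells. They were 1, 0 and 1 without WT floating 1, 2, 1 and 1 without KO floating 1, and 3, 0 and 1 without KO adherent 1. Of the stem cell markers 0 fell without any 1 of these 4 arrays, and 0 fell with quantile normalization. With normexp 1 neuronal marker rose.

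Fewer of the remaining markers could be tested. Of 5 tested Schwann cell markers 0 rose and 1 fell, Cdh19, by 1.42 (SE 0.27). Of 3 microglia markers and 3 endothelial markers 0 passed, with Itgam at a difference of 0.67 and Kdr at -0.14, and the microglia genes Aif1, C1qa, Cx3cr1 and Ptprc were not above background on any array. Of the pericyte and fibroblast list 1 gene could be tested, Anpep, which did not pass (difference -0.92, limma adjusted p = 0.473).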
